A study of Rattus norvegicus with 180 samples.

Results

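The medulla oblongata, the caudal end of the brainstem, was compared with the cervical spinal cord directly below it in 3 rats. Arrays were chosen by the organ in the sample title, from the perfused animals numbered 4, 5 and 6, and were paired by animal number, which gave 6 of the 180 arrays of the series. All animals were male Sprague-Dawley rats of 10 weeks whose blood had been flushed out with saline before the organs were collected. They were anesthetized with ether, and no test compound is named in the labels. Total RNA of each organ of each animal was labelled with Cy3 and hybridized to a 1-colour Agilent rat miRNA array, so that each group was 3 animals and each value was from bulk tissue. The pectoral and lumbar spinal cord of the same animals were measured in the same way and entered the fit, which therefore held 12 arrays. The 4 arrays of animal 5 in this fit carry the number 5 in the title and the number 6 in another label. The title was followed here, and the fit was also made without that animal.

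HOX genes lie in clusters and are used along the body axis in an order that follows their order on the chromosome, so that genes at one end of a cluster are active from the hindbrain downwards and genes at the other end only in more caudal segments. The clusters also hold miRNA genes. The miR-10 genes lie at the anterior part of the clusters and the miR-196 genes at the posterior part, and both families are known to repress HOX mRNAs. In the nervous system, other miRNAs mark cell types rather than position, such as miR-124 in neurons and miR-219-2-3p and miR-338 in oligodendrocytes, the cells that make central myelin.

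The mature sequences of the miR-10 and miR-196 families that the results turn on are shown first, because members of each family differ by so few bases that their probes may share signal. The letters are those of RefSeq, and capitals mark the seed, bases 2 to 8 from the 5′ end.
miR-10a-5p: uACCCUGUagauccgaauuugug
miR-10b: cCCUGUAGaaccgaauuugugu
miR-196a: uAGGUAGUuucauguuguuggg
miR-196b: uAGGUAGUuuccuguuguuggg
miR-196c: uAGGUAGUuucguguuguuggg
Laid from the third base of miR-10a-5p, miR-10b matched 20 of 21 bases and differed at U12A, counted from the 5′ end of miR-10a-5p. The RefSeq form of miR-10b thus starts 2 bases further into the shared run, so bases 2 to 8 of the pair were not the same letters. The 3 miR-196 sequences had 1 seed. Against miR-196a, miR-196b differed at A12C and miR-196c at A12G, counted from the 5′ end.

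In RefSeq build GRCr8 the miR-10a precursor is at chr10:81779709-81779818 on the plus strand, between Hoxb5 and Hoxb4. The miR-10b precursor, chr3:80035859-80035967 on the plus strand, lies inside the annotated span of Hoxd4. The precursor of miR-196a at chr7:135988876-135988985 (plus strand) lies between Hoxc10 and Hoxc9, and that of miR-196b at chr4:82661101-82661185 (minus strand) between Hoxa9 and Hoxa10. The miR-196c precursor at chr10:81727551-81727630 (plus strand) lies between Hoxb13 and Hoxb9, and miR-615 at chr7:136030353-136030444 (plus strand) lies inside the spans of Hoxc6 and Hoxc5. The miR-10a and miR-10b genes thus lie at Hoxb4 and Hoxd4, and the 3 miR-196 genes next to Hoxc9 and Hoxc10, Hoxa9 and Hoxa10, and Hoxb9.

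Between 179 and 238 miRNAs were detected per array over the 12 arrays, and 0 spots were saturated. The correlation of log2 signals across the tested miRNAs, which are not independent replicates, was 0.977 to 0.991 between medulla arrays, 0.991 to 0.992 between cervical arrays and 0.939 to 0.963 between arrays of the different tissues. The neural markers miR-124, miR-219-2-3p and miR-338 were detected on all 6 arrays compared. The lumbar array of animal 4 stood apart. Its residuals from the fit had a root mean square of 0.498 on the log2 scale, against 0.146 to 0.372 on the others. On it the neuronal miR-124 had a signal of 653, against 2635 and 1574 in the lumbar cord of animals 5 and 6, and miR-219-2-3p had 106, against 1010 and 726. The red cell miRNA miR-451 had 838 there, against 142 and 52.9. This array is not one of the 6 compared, but it adds to the spread that the fit shares over tissues, so the main counts of calls are also given without it.

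Of the 717 miRNAs on the array, 250 had at least 1 detection among the 6 arrays and 188 were tested, those detected on 3 of 3 arrays of the medulla or of the cervical cord. Signals are background-corrected intensities scaled between arrays, so the same miRNA may be compared between tissues but not 1 miRNA with another. Differences are log2 of cervical over medulla signal, with values under a floor of 10.8 set to it. In limma with animal as a block, 3 miRNAs were higher in the cervical cord (1.60% of those tested) and 2 were higher in the medulla (1.06%), at a Benjamini-Hochberg adjusted p under 0.05. Those higher in the cervical cord were miR-10b, miR-10a-5p and miR-100, and those higher in the medulla were miR-135b and miR-592. At an unadjusted p under 0.05 there were 16. The median difference over all 188 was -0.06 and the median size of a difference was 0.15. Without the lumbar array of animal 4, 7 were higher in the cervical cord (3.72%) and 13 in the medulla (6.91%), and these 20 included the same 5. With the 6 arrays of the 2 tissues alone, 9 were higher in the cervical cord (4.79%) and 18 in the medulla (9.57%). When each array was scaled over the miRNAs detected on all 12 arrays instead, the split was 2 higher in the cord and 7 in the medulla, and the median of all differences moved to -0.25.

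**Figure D1:**
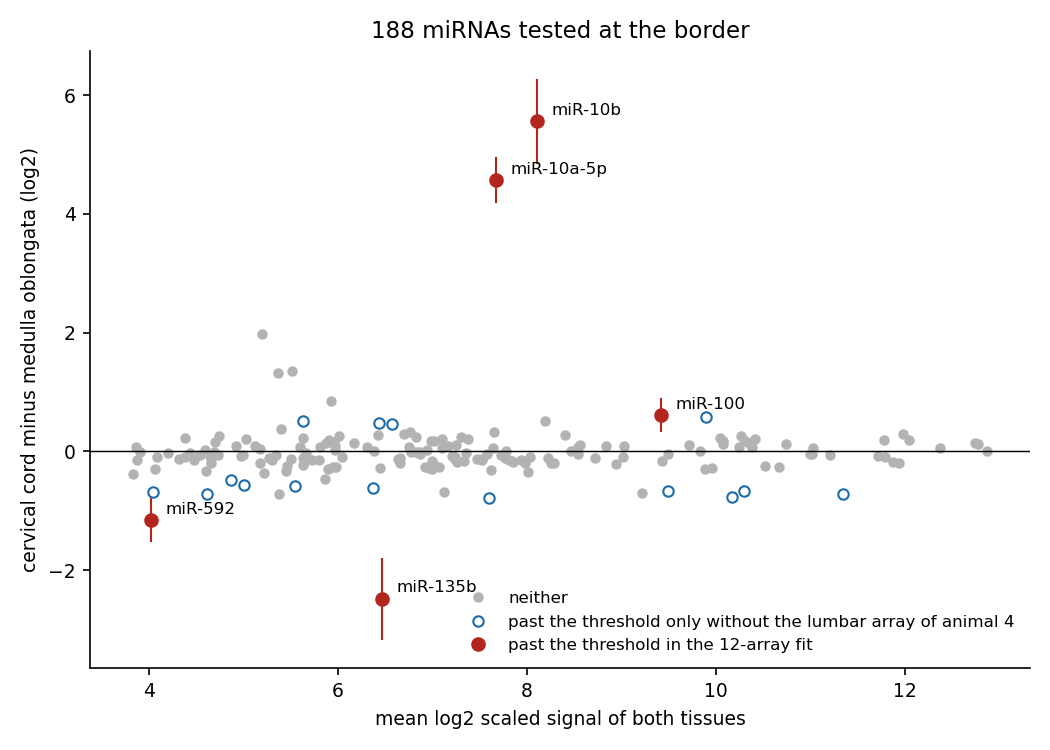
Difference between cervical spinal cord and medulla oblongata (log2, vertical) against the mean log2 scaled signal of both tissues (horizontal) for the 188 miRNAs tested, n = 3 animals. Filled red points passed the threshold in the 12-array fit, with 95% intervals, and open blue points passed only without the lumbar array of animal 4. The miR-10 pair lies at 4.57 and 5.56, and the largest difference of any other miRNA is 2.48 in size.

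The miR-10 pair had the 2 largest differences between the tissues. MiR-10b had signals of 38.2, 36.8 and 46.1 in the medulla of animals 4, 5 and 6, and of 1565, 2188 and 1975 in the cervical cord. All 3 cord values were far above all 3 medulla values, and miR-10b was detected on all 6 arrays, so its low medulla signal was a measured level. The mean was 40.4 ± 4.99 (SD, n = 3) in the medulla and 1909 ± 317 in the cervical cord. The difference was 5.56 (SE 0.315, 95% interval 4.84 to 6.27), or 47.1-fold, with a limma adjusted p of 4.25e-06, and it was 5.36, 5.89 and 5.42 in the 3 animals.

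MiR-10a-5p had signals of 38.4, 47.9 and 40.3 in the medulla and of 907, 1148 and 952 in the cervical cord of the same animals. The groups did not overlap, and it too was detected on all 6 arrays. The difference was 4.57 (SE 0.172, 95% interval 4.18 to 4.96), or 23.7-fold, with a limma adjusted p of 2.64e-07. In the 3 animals it was 4.56, 4.58 and 4.56, with little spread between animals. Each miRNA was read by 2 probe sequences, which gave 5.52 and 5.54 for miR-10b and 4.89 and 4.43 for miR-10a-5p. For any single miRNA, an exact sign test over 3 pairs cannot give a p below 0.25, nor an exact permutation of 3 against 3 one below 0.1, so calls rest on the fit across all miRNAs.

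The step lay at this border, and no step of its size was seen along the cord. MiR-10a-5p had means of 1002 in the cervical, 971 in the pectoral and 1088 in the lumbar cord, and miR-10b had 1909, 1845 and 1955. The lumbar minus cervical difference was 0.12 (SE 0.172, limma adjusted p = 0.711) for miR-10a-5p and -0.07 (SE 0.315, limma adjusted p = 0.905) for miR-10b. The lumbar value of miR-10b in animal 4 was 989 and lay below the others, at 2647 and 2230. The difference between the border step and the step from cervical to lumbar cord was itself tested. It was 4.45 (SE 0.298) for miR-10a-5p, with a limma adjusted p of 3.42e-05, and 5.63 (SE 0.546) for miR-10b, with one of 0.000358. These were the 2 miRNAs called of 188 (1.06%), and without animal 6 miR-10a-5p alone was called. Without the lumbar array of animal 4 there were 5 (2.66%), the same pair with miR-100, miR-135b and miR-219-2-3p.

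Above the border the signals were lower still. In the cerebral cortex, hippocampus and thalamus, miR-10b was detected on no array, and in the cerebellum on 1 of 3, with signals up to 11.5. MiR-10a-5p was detected on 1 of 3 arrays of the cortex and of the hippocampus, on 0 of 3 of the thalamus and on 2 of 3 of the cerebellum, with signals up to 16.1. The medulla, with both miRNAs detected on 3 of 3 arrays at 36.8 to 47.9, thus lay above these 4 brain tissues and below the cord, with no overlap on either side. These brain levels are given as a description, with no test. The ischial nerve, a peripheral nerve, lay between medulla and cord, with miR-10a-5p at 312 to 337 and miR-10b at 594 to 674. In the optic nerve, a tract of the brain, miR-10b was detected on 1 of 3 arrays, that of animal 4, at 59.8. That array also had a signal of 1989 for the muscle miRNA miR-1, against 4.98 and 4.53 on the other optic nerve arrays. Over the 55 perfused organs the cervical cord had rank 4 in mean miR-10b signal, after the epididymis at 4384, the adrenal gland at 2479 and the lumbar cord, and the medulla had a higher mean than 11 organs.

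**Figure D2:**
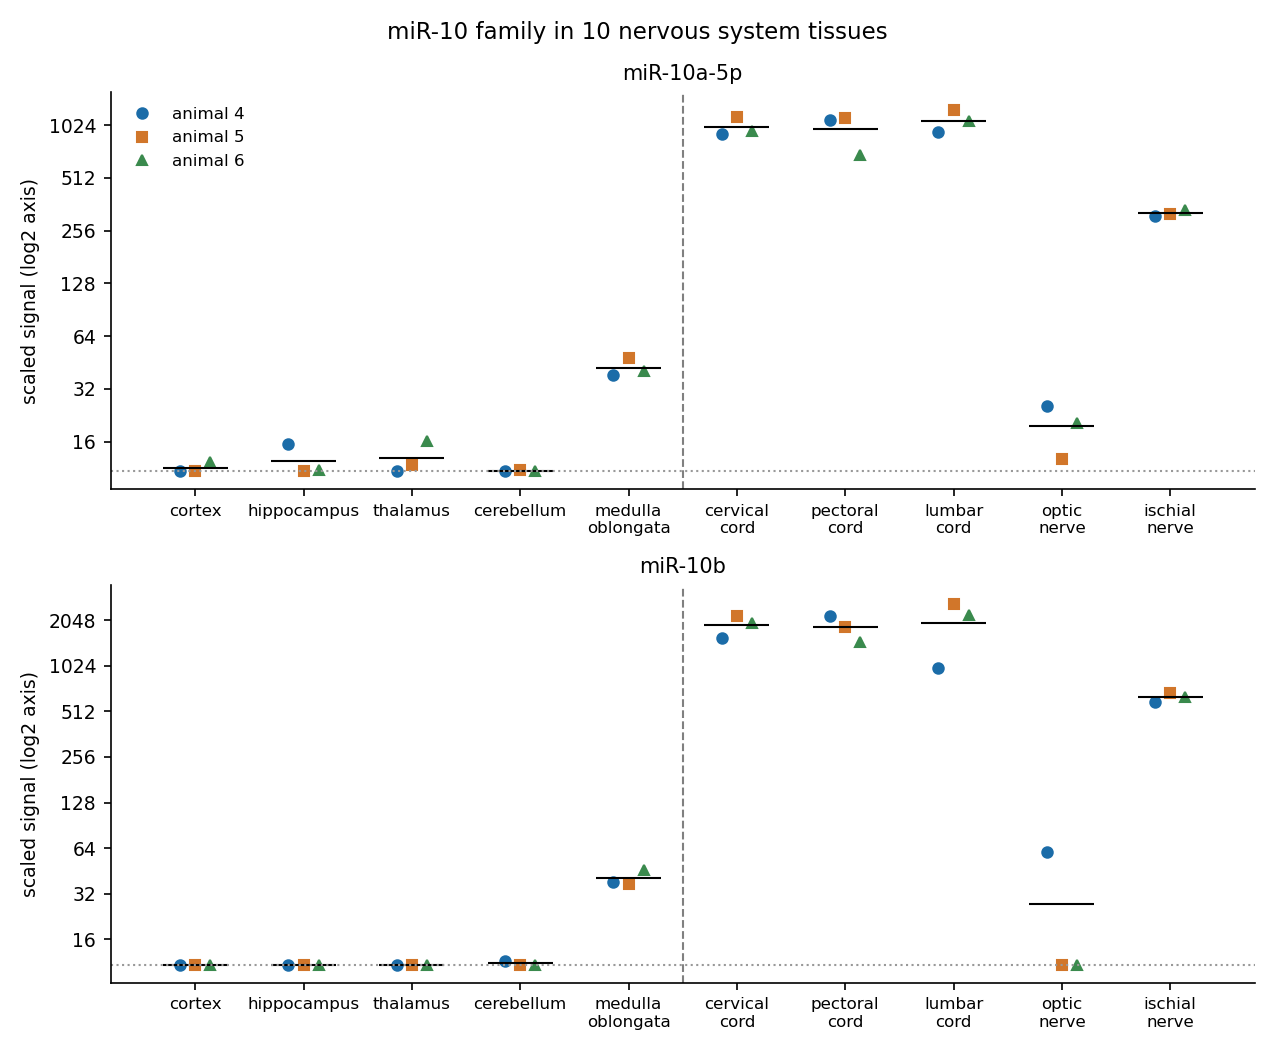
Scaled signal (log2 axis) of miR-10a-5p and miR-10b in 10 nervous system tissues, 1 point for each of animals 4, 5 and 6 and a bar for the mean, with values under the floor of 10.8 (dotted line) drawn at it. The dashed line is the border between medulla oblongata and cervical cord, where both miRNAs go from 36.8 to 47.9 in the medulla to 907 or more in the cervical cord.

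Of the 11 names in the HOX list these 2 were tested at the border, and none of the others was detected on any of the 6 arrays. MiR-10b*, the other arm of the miR-10b precursor, had signals of -0.28, -0.10 and -0.43 in the medulla and of 6.63, 13.6 and 9.41 in the cervical cord. It was not well above background on any of these 6 arrays, and it was detected on 1 of 3 arrays each of the pectoral and lumbar cord. MiR-10a-3p had signals up to 3.81, and miR-196a*, miR-196b*, miR-196c* and miR-615 had signals below 0 on all 6 arrays. No fold is given for any of them.

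The miR-196 family was detected below the cervical cord but not in it. MiR-196a had signals of 1.84, 1.44 and 4.01 in the medulla and of 1.82, 3.49 and 3.60 in the cervical cord, none well above background. In the pectoral cord it had 83.4, 16.2 and 15.8 in animals 4, 5 and 6, and in the lumbar cord 136, 105 and 119. It was detected on 2 of 3 pectoral and 3 of 3 lumbar arrays, and the pectoral value of animal 4 was far above those of the other 2 animals. MiR-196b went the same way, with 1.92, 9.05 and 3.72 in the cervical, 70.2, 13.6 and 17.7 in the pectoral and 66.5, 79.4 and 64.2 in the lumbar cord. MiR-196c was detected on 0 of 3 pectoral and 1 of 3 lumbar arrays, at 14.8 to 20.6 in the lumbar cord. In the ischial nerve miR-196a was at 149 to 164 and miR-196b at 90.7 to 115. Over the 55 perfused organs the highest mean of miR-196a was in the femoris muscle, 332, and that of miR-196b in the cecum, 830. The muscle miRNA miR-1 had 24.7, 49.3 and 19.2 in the cervical, 52.0, 135 and 53.6 in the pectoral and 56.5, 71.3 and 156 in the lumbar cord. Whether other tissue on these arrays bears on the miR-196 signals was not tested. The animal whose pectoral miR-196a signal was highest was also the one whose pectoral miR-196b signal was highest, and these sequences differ by 1 base.

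MiR-196a was at least 15.8-fold higher in the lumbar than in the cervical cord and miR-196b at least 9.00-fold, or 14.8-fold and 9.22-fold without the lumbar array of animal 4. These are lower bounds, the lumbar mean against, for each cervical array, the lowest signal of any miRNA detected there or the miRNA's own signal where that was higher. They are a description with no test, since both miRNAs were chosen after their values were seen and would enter a test only through the tissue where they are high. Among the 188 miRNAs tested at the border, 0 were called in limma between pectoral and cervical cord, lumbar and pectoral cord, or lumbar and cervical cord, with 1, 9 and 20 at an unadjusted p under 0.05.

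**Figure D3:**
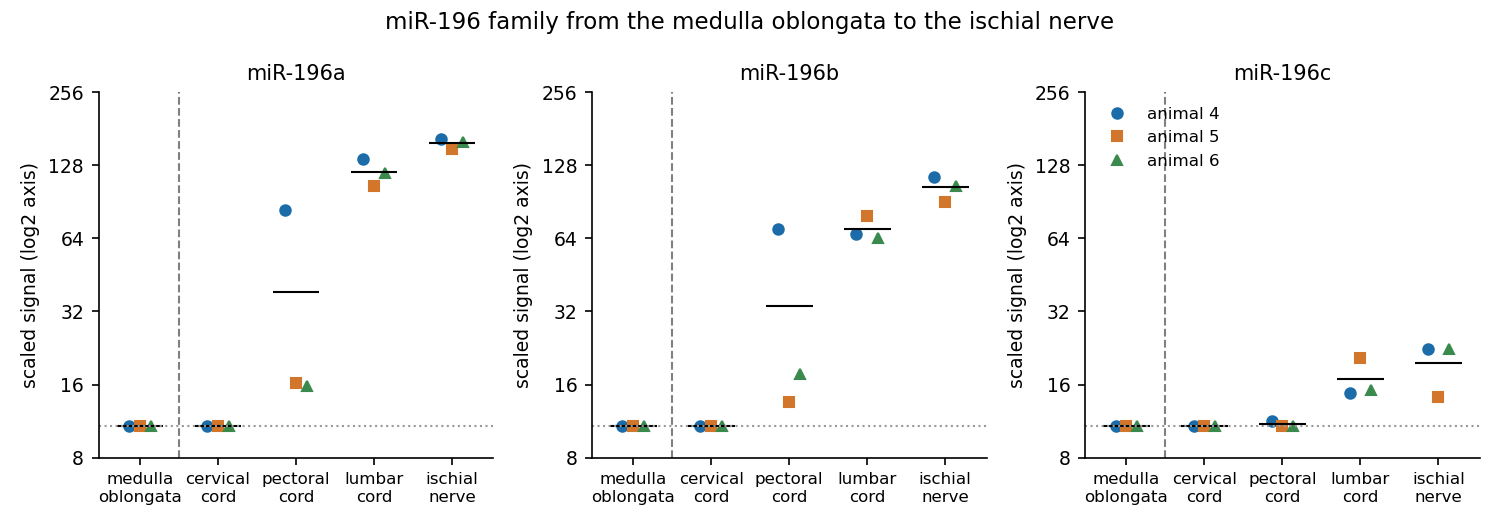
Scaled signal (log2 axis) of miR-196a, miR-196b and miR-196c from the medulla oblongata to the ischial nerve, 1 point for each of animals 4, 5 and 6 and a bar for the mean, with values under the floor of 10.8 (dotted line) drawn at it. All 6 values at the border (dashed line) are at the floor for each miRNA, and the lumbar miR-196a values are 105 to 136.

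MiR-135b and miR-592 were the miRNAs called higher in the medulla, and their sequences are given with that of miR-135a, which shares the seed of miR-135b.
miR-135b: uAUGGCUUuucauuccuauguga
miR-135a: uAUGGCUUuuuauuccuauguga
miR-592: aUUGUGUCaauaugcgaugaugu
MiR-135a differed from miR-135b at C11U, counted from the 5′ end. The miR-135b precursor lies inside the span of Lemd1, and that of miR-592 inside Grm8, the gene of a metabotropic glutamate receptor.

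MiR-135b had signals of 176, 318 and 164 in the medulla of animals 4, 5 and 6, and of 37.7, 37.9 and 36.8 in the cervical cord. The cord values were close together, and the medulla value of animal 5 was the highest. The difference was -2.48 (SE 0.304, 95% interval -3.17 to -1.79), 5.58-fold higher in the medulla, with a limma adjusted p of 0.00150, and its 2 probe sequences gave -2.47 and -2.49. Without animal 6 it was -2.64 with a limma adjusted p of 0.107. MiR-135a, on the same arrays, had 49.9, 134 and 48.2 in the medulla and 35.9, 76.7 and 44.2 in the cervical cord, a difference of -0.47 (SE 0.220, limma adjusted p = 0.552), with overlapping groups. Of the 55 perfused organs, the medulla had the highest mean miR-135b signal, 219, and in 40 organs it was detected on no array. The thalamus came next at 172, 202 and 176, values that overlapped those of the medulla, and the order of these means rests on the medulla array of animal 5. Along the cord the means went on at 29.6 in the pectoral and 27.6 in the lumbar part.

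MiR-592 had signals of 21.6, 32.5 and 20.2 in the medulla. In the cervical cord it had 5.29, 6.56 and 6.67 and was not well above background on any array. The tested difference, with the cervical values at the floor of 10.8, was -1.16 (SE 0.164, limma adjusted p = 0.00342). Against the lowest signal of any miRNA detected on each cervical array, in place of that floor, it was at least 3.21-fold higher in the medulla. It entered the test only through its detection in the medulla, the tissue where it is high, so this p is no independent support, and the miRNA was not tested when detection on all 6 arrays was asked for. It was not detected on any array of the 3 cord levels. It was detected on 3 of 3 arrays in 2 of the 55 organs, and the medulla had the highest mean, 24.8, followed by the cerebral cortex at 14.6. These are low signals, and under normexp background correction the difference was -0.41 with a limma adjusted p of 0.704. Without animal 5 or without animal 6 the adjusted p was 0.0960 or 0.107.

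MiR-100 had signals of 518, 606 and 535 in the medulla and of 774, 904 and 861 in the cervical cord. The groups did not overlap, and the difference was 0.61 (SE 0.129, 95% interval 0.32 to 0.91), or 1.53-fold, with a limma adjusted p of 0.0436. It was 0.58, 0.58 and 0.69 in the 3 animals. This call was close to the threshold and was lost in 22 of 34 alternative fits, with limma adjusted p from 0.00423 to 0.645. The cervical cord stayed higher in all of them. Further down, miR-100 had 840, 1026 and 894 in the pectoral and 492, 784 and 605 in the lumbar cord. The lumbar values overlapped those of the medulla. The lumbar minus cervical difference was -0.46 (SE 0.129, limma adjusted p = 0.318). The miR-99 and miR-100 sequences resemble miR-10, to which their seed is close.
miR-100: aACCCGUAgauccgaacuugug
miR-99b: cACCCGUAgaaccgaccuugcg
Laid from the second base of miR-10a-5p, miR-100 matched 19 of 22 bases, with the differences C3A, U6C and U18C counted from the 5′ end of miR-10a-5p. Among its own family, miR-99b, with the same seed, had a difference of -0.03 (SE 0.142, limma adjusted p = 0.948) and miR-99a one of 0.17 (SE 0.172, limma adjusted p = 0.906). MiR-125b-5p, which has a precursor gene, Mir125b1, within 100 kb of that of miR-100, had a difference of 0.00 (95% interval -0.25 to 0.25). MiR-125a-5p had 510, 570 and 510 in the medulla and 430, 470 and 479 in the cervical cord, lower in the cord without overlap, with a difference of -0.20 (SE 0.188, limma adjusted p = 0.906). In that list of 11 names, 5 were tested and 1 was called higher in the cervical cord, where 1.60% of all miRNAs were. The median difference was 0.00, against -0.06 over all miRNAs.

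**Figure D4:**
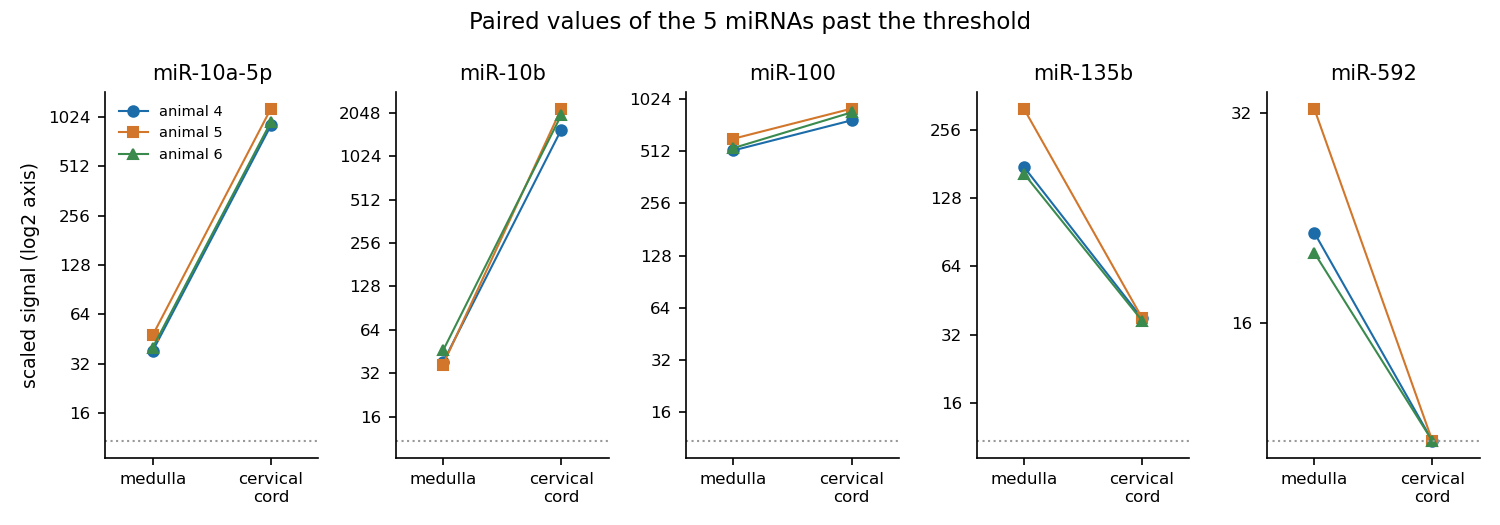
Scaled signal (log2 axis) in medulla oblongata and cervical spinal cord of the 5 miRNAs past the threshold, with a line for each of animals 4, 5 and 6 and values under the floor of 10.8 (dotted line) drawn at it. In all 5 the lines of the 3 animals run the same way, and the cervical values of miR-592 are all at the floor.

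Among the 188 miRNAs, 15 had all 3 cervical values above all 3 medulla values (7.98%) and 26 had them below (13.8%). The neuronal list, miRNAs enriched in neurons, leaned to the medulla. Of its 16 tested members 8 were lower in all cervical arrays than in all medulla arrays and 2 higher, and the median difference was -0.56, against -0.06 over all miRNAs. With an animal or array left out the list median ranged from -0.66 to -0.34. MiR-135b was its 1 called member, where 1.06% of all miRNAs were called in that direction. MiR-124, a neuron-specific miRNA, had 2749, 3918 and 3452 in the medulla and 1770, 2353 and 2019 in the cervical cord. The groups did not overlap, and the difference was -0.71 (SE 0.312, limma adjusted p = 0.552), or with an adjusted p of 0.0251 without the lumbar array of animal 4. MiR-128 had a difference of -0.67, and miR-129, miR-129-1* and miR-129-2*, arms of the miR-129 precursors, had -0.78, -0.66 and -0.76, all without overlap. Without that lumbar array 6 of the 16 were called lower in the cervical cord (6.91% of all tested), namely miR-124, miR-128, the 3 miR-129 arms and miR-135b. With the 6 arrays alone 7 were called, against 9.57% of all tested. Not all members leaned this way. MiR-132, induced by neuronal activity, had 192, 209 and 146 in the medulla and 212, 237 and 226 in the cervical cord, without overlap, a difference of 0.32 (SE 0.391, limma adjusted p = 0.906). MiR-138 and miR-137 had differences of 0.24 and 0.29 with overlapping groups. MiR-9, which is used by neurons and by neural progenitors, had a difference of -0.04, with a 95% interval from -0.78 to 0.70. In bulk tissue, fewer cells of a type and less RNA per cell cannot be told apart.

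The imprinted Dlk1-Dio3 cluster, a large group of miRNAs that is mostly used in brain, leaned the same way by small amounts. Of its 36 tested members 34 had a negative difference, against 111 of all 188 miRNAs, and 10 were lower in the cervical cord without overlap, against 13.8% of all miRNAs. In the 12-array fit 0 were called, where 1.06% of all miRNAs were called lower in the cervical cord. The median difference was -0.20, against -0.06 over all miRNAs, and the range was -0.61 to 0.11. With an animal or array left out the list median was -0.29 to -0.13. MiR-341 had 96.4, 114 and 97.4 in the medulla and 61.3, 72.0 and 68.0 in the cervical cord, a difference of -0.61 (SE 0.292, limma adjusted p = 0.552, or 0.0420 without the lumbar array of animal 4). MiR-758 had a difference of -0.57, with a limma adjusted p of 0.702, or 0.0388 without that array. Without it 4 of the 36 were called lower, with 6.91% of all miRNAs called in that direction.

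MiR-219-2-3p, an oligodendrocyte miRNA, had 719, 774 and 842 in the medulla and 1045, 1216 and 1233 in the cervical cord. The groups did not overlap. Under the scaling used here the cervical cord had the highest mean of the 55 organs, 1165. The pectoral cord followed at 1136, and its values overlapped those of the cervical cord. The optic nerve, which the paper lists first for this miRNA, had 427, 791 and 860 here. The cervical minus medulla difference was 0.58, and 0.28 to 0.91 with an animal or array left out. In the 12-array fit its SE was 0.568 and the limma adjusted p 0.906, and without the lumbar array of animal 4, where the signal was 106, they were 0.121 and 0.0245. With the 6 arrays alone the adjusted p was 0.00637. Its sequence and that of miR-338, the other oligodendrocyte miRNA tested, share no seed.
miR-219-2-3p: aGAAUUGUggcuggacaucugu
miR-338: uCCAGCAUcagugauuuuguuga
MiR-338 had a difference of 0.29 (SE 0.132, limma adjusted p = 0.552) and miR-219-5p, the other arm, one of 0.26 (SE 0.589, limma adjusted p = 0.906). Both had overlapping groups. All 3 tested members of the list had a positive difference, against 77 of all 188 miRNAs, and the median was 0.29, against -0.06. With an animal or array left out that median was 0.20 to 0.53. Without the cervical array of animal 4 miR-219-5p turned to -0.15.

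The 3 tested names of the smooth muscle list had lower signals in the cervical cord. None passed the threshold in the 12-array fit with the scaling used here. The names did not go together in other tissues. In the ischial nerve miR-143 had a mean of 1800 and miR-490 one of 0.03, with no detection. In the thalamus miR-490 had a mean of 12.7. In the lumbar cord miR-143 had 594, 767 and 635, values that overlapped those of the medulla. MiR-143, a smooth muscle and vessel wall miRNA, had 662, 907 and 736 in the medulla and 468, 515 and 423 in the cervical cord, a difference of -0.71 (SE 0.243, limma adjusted p = 0.385, or 0.111 without the lumbar array of animal 4). The arms of the miR-490 precursor, miR-490 and miR-490*, had differences of -0.68 and -0.72, with adjusted p of 0.118 and 0.291, or 0.0300 and 0.0245 without the lumbar array of animal 4. MiR-490* was detected on 3 of 3 medulla and 1 of 3 cervical arrays and entered the test only through the medulla, so its values are a description. MiR-143 and miR-490, detected on all 6 arrays, were lower in the cervical cord without overlap, as were 13.8% of all miRNAs. The summed signal of the 4 names was 723 to 997 in the medulla and 465 to 566 in the cervical cord. Most of each sum was miR-143, so it adds little to the values of that miRNA. The endothelial miR-126 and miR-126* had differences of -0.04 and 0.03, with 95% intervals of -0.43 to 0.35 and -0.45 to 0.52. These intervals hold both directions.

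Markers of blood, immune, muscle and connective tissue cells were also read, and their part in the differences above was not tested. MiR-451, the red cell miRNA, had 6.32, 9.97 and 1.98 in the medulla and 20.4, 54.2 and 11.6 in the cervical cord, detected on 2 of 3 arrays of each. The summed signal of the 3 red cell names, most of it miR-451, was 2.22 to 10.5 in the medulla and 13.3 to 56.6 in the cervical cord. Of the 7 leukocyte and microglia names on the array, 6 were detected on 3 of 3 arrays of both tissues, and their summed signal was 936 to 1089 in the medulla and 952 to 1178 in the cervical cord. The 6 tested members had differences from -0.19, in the lymphocyte miRNA miR-150, to 0.51 with a median of 0.14, against -0.06 over all miRNAs. In that list miR-142-3p had a difference of 0.51 (SE 0.436, limma adjusted p = 0.906, or 0.0375 without the lumbar array of animal 4) and miR-146a one of 0.45 (SE 0.182, limma adjusted p = 0.516, or 0.0420). With an animal or array left out miR-142-3p ranged from 0.24 to 0.74. The skeletal muscle list summed to 252 to 306 in the medulla and to 341 to 492 in the cervical cord. Most of each sum was miR-133b, at 237, 218 and 284 in the medulla and 307, 424 and 329 in the cervical cord. It alone was tested, with a difference of 0.52 (SE 0.338, limma adjusted p = 0.766). MiR-1 had 10.4, 20.9 and 13.3 against 24.7, 49.3 and 19.2. MiR-206 went the other way, at 2.85, 4.46 and 2.31 against 1.15, 2.08 and 0.59. MiR-206 and miR-133a were not detected on any of these arrays. The mesenchymal miR-199a-3p had 41.9, 57.9 and 38.0 in the medulla and 87.4, 97.8 and 63.2 in the cervical cord, a difference of 0.85 (SE 0.475, limma adjusted p = 0.679). The 4 tested members of its list had differences from -0.16 to 0.85 with a median of 0.07, 2 of them negative, and the list summed to 386 to 498 in the medulla and to 447 to 521 in the cervical cord.

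MiR-96 and miR-183, which are made from 1 transcript known from sensory cells, varied between the medulla arrays. MiR-183 had 23.5, 1.92 and 69.9 there and 62.7, 89.5 and 49.1 in the cervical cord. The groups overlapped, and the difference was 1.32 (SE 0.671, limma adjusted p = 0.597). With an animal or array left out it ranged from 0.45, without animal 5, to 2.27, without the medulla array of animal 6, which had the highest medulla signal, and only the latter fit gave a limma adjusted p under the threshold, 0.0338. It was detected on 2 of 3 medulla and 3 of 3 cervical arrays and entered the test only through the cervical cord. MiR-7a, an endocrine and neuronal miRNA, had 198, 221 and 125 in the medulla and 108, 117 and 105 in the cervical cord, a difference of -0.68 (SE 0.324, limma adjusted p = 0.552) without overlap. MiR-218, known from motor neurons of hindbrain and cord, had 481, 653 and 490 in the medulla and 373, 771 and 441 in the cervical cord, a difference of -0.09 (SE 0.317, limma adjusted p = 0.922).

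In the other families the differences were small. The 8 let-7 members had differences from -0.27, in let-7e, to 0.20, in let-7b, and 0 were called in the 12-array fit. Of all miRNAs, 1.60% were called higher in the cervical cord and 1.06% higher in the medulla. The 7 tested names of the list for the miR-17-92 and miR-106b-25 clusters, which are tied to proliferation, had a median of 0.22. Among the listed names, miR-20b-5p was at 0.38 and miR-20a at 0.27. The miR-181, miR-29 and miR-30 families had medians of -0.13, -0.20 and -0.17. Their largest differences were -0.29 in miR-181c, -0.25 in miR-29c and -0.19 in miR-30d. The glial growth and injury list, with miR-21, miR-221 and miR-222, had a median of 0.11 over 8 members, and miR-27b had the largest difference, 0.21. Of the epithelial and choroid plexus list 3 of 14 names were tested, and miR-34b and miR-34c had differences of -0.12 and -0.15, while miR-204, a choroid plexus miRNA, had one of 0.11. None of these members passed the threshold in the 12-array fit. With the 6 arrays alone let-7e, miR-20b-5p and miR-181c did, with limma adjusted p of 0.0321, 0.0158 and 0.0302. In that fit 4.79% of all miRNAs were called higher in the cervical cord and 9.57% higher in the medulla. With scaling over the miRNAs detected on all 12 arrays, the medians of the let-7, glial, leukocyte and miR-99, miR-100 and miR-125 lists turned to -0.13, -0.09, -0.05 and -0.20, beside a median of all miRNAs of -0.25.

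**Figure D5:**
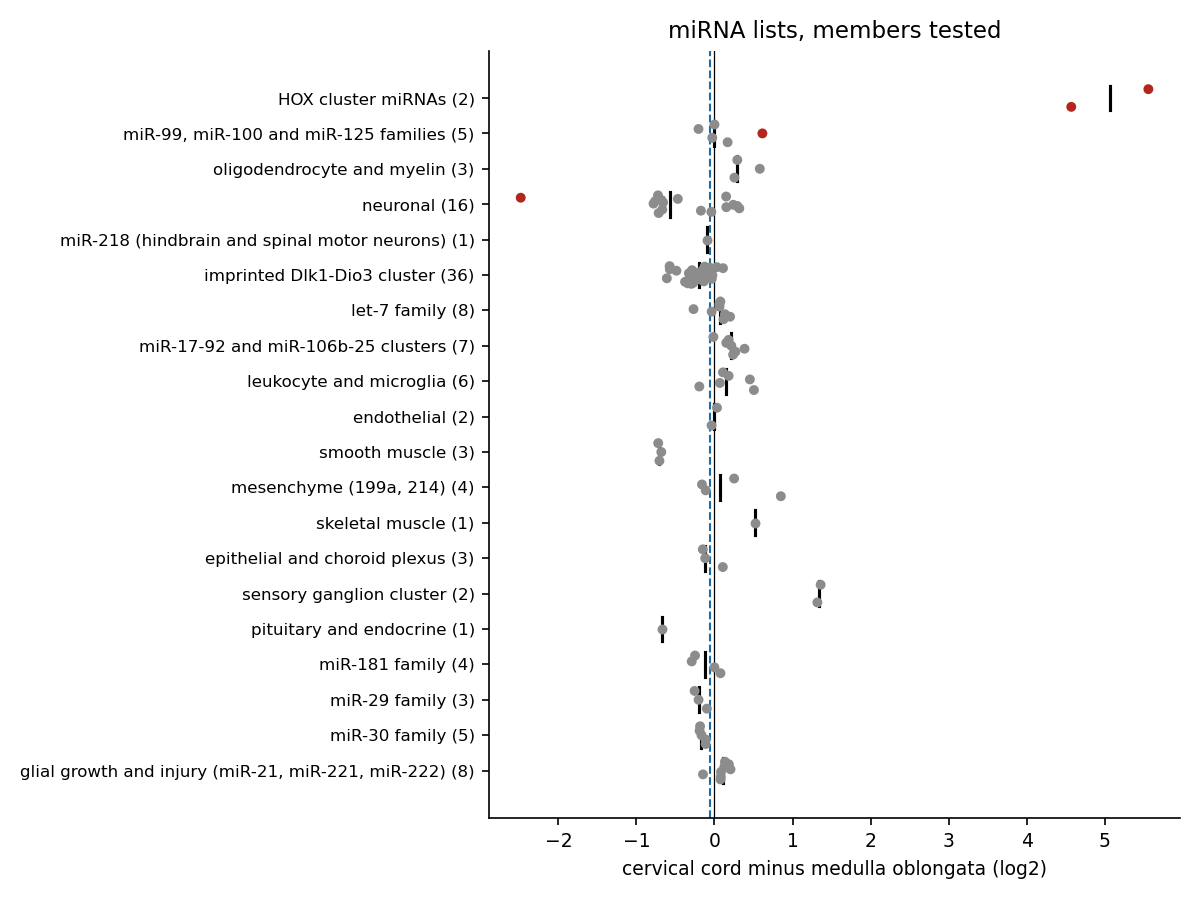
Difference between cervical spinal cord and medulla oblongata (log2) of the tested members of each miRNA list, with the number tested in brackets. Each point is a miRNA, red where the limma adjusted p was under 0.05, short black bars are list medians and the dashed blue line is the median of all 188, -0.06. The HOX cluster members lie at 4.57 and 5.56, and the neuronal list has a median of -0.56.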

How the data were processed

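Per the submitters' processing notes, arrays were read with Agilent Feature Extraction 10.7.3. The authors deposited its output, with a background-corrected signal intensity per spot, and a table of normalized intensities per miRNA, scaled to the 75th percentile. The deposited spot intensities were used here. Outlier spots were left out, spots were averaged per probe sequence and then per miRNA, and each array was divided by its 75th percentile among 37 miRNAs seen on every one of the 180 arrays, then multiplied by 2118, the average of those percentiles. A miRNA counted as detected when more than 50% of the spots used passed the scanner software's test against background. Signals under 10.8, the median over arrays of the lowest detected signal, were set to it before log2. Limma 3.58.1 in R 4.3.3 fitted tissue and animal to 12 arrays, with two-sided p adjusted by Benjamini-Hochberg over 188 miRNAs. Array number limits the precision. The members, lists and tests were chosen with earlier results of these data known. Named miRNAs were the HOX list, those called with the same direction in 3 of 3 animals (at most 10 per direction), in each other list up to 4 called members or, with none, the 2 most different, and other arms tested. Members named beside these were chosen after their values were seen. Animal numbers come from the titles. Each number has 1 slide, but for animal 5 another label gives 6, so that pairing by rat rests on the titles. Deviations from the tissue means correlated at 0.348, 0.287 and 0.304 between same-numbered medulla and cervical arrays. Scripts were tested on simulated data. Genome positions are from RefSeq, and 0 value columns belonged to no sample.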

Additional observations from a re-analysis of the deposited data

How the results depend on the processing

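MiR-10a-5p and miR-10b were called higher in the cervical cord in all 34 alternative fits, with differences of 3.40 to 4.63 and 4.32 to 5.67. MiR-135b kept its call in 32 of 34, with differences of -2.68 to -1.55 over all 34. MiR-592 was called in 28 of 33, which is no independent support, since of both tissues it was detected in the medulla alone. The 5 calls became 9 with scaling over the miRNAs detected on all 12 arrays, 3 with normexp, 2 without a filter on dim probes, 3 with miRNAs detected on all 6 arrays and 27 with the 6 arrays only. Without the replicate block 4 were called, and with a random block 4, since miR-100 was lost in both. Leaving out an animal or an array gave 2 to 20 calls. MiR-100 was lost without each animal, miR-592 without animal 5 or 6, and miR-135b without animal 6, which left the miR-10 pair as the 2 calls. The 2 calls for the difference between the border step and the cord step became 5 with that scaling, 4 with the value table of the submitters and 5 with a higher floor, and 1 to 5 when an animal or the lumbar array of animal 4 was left out. The cause of these moves was not tested, except that fewer or more samples or miRNAs entered some fits by construction. Uncalled differences changed sign in 19 cases. MiR-126* came to -0.16 with that scaling, -0.00081 with the value table, -0.016 with normexp and -0.051 with the median over all spots, and to -0.058 to 0.13 with an array left out. MiR-34b came to 0.064 with a higher floor and 0.13 with the median over all spots, and miR-23b to -0.012 with that scaling. With an animal or array left out, miR-34b ranged from -0.40 to 0.14, miR-34c from -0.53 to 0.17, miR-218 from -0.26 to 0.04, miR-126 from -0.10 to 0.013, miR-219-5p from -0.15 to 0.53 and miR-30e* from -0.12 to 0.038. Of those that kept their sign, miR-7a ranged from -0.92 to -0.42 and miR-133b from 0.29 to 0.68. MiR-20b-5p likewise ranged from 0.17 to 0.58 and miR-199a-3p from 0.56 to 1.11. Of the other calls, miR-490 passed without the medulla array of animal 6 (adjusted p = 0.0338), miR-143 without the pectoral array of animal 6 (0.0443) and miR-199a-3p without the lumbar array of animal 5 (0.0427). MiR-143 and miR-490 also passed with scaling over the miRNAs detected on all 12 arrays (limma adjusted p = 0.0293 and 0.0271). Scaling to the median of those miRNAs, or fitting 30 nervous system arrays, called miR-490 too (limma adjusted p = 0.0475 and 0.00994). The normexp setting used median spot signals and was added, with the single left-out arrays and the wider filter, after the data were seen. The planned form on mean spot signals was not run. Signals near background limit miR-592 and the miR-490 arms.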
